A study of Mus musculus with 6 samples.

Results

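The genes described here build the fibrillar and interstitial matrix of the dermis, the connective tissue under the epidermis. They are 10 genes: the collagen genes Col1a1, Col1a2, Col3a1, Col5a1, Col5a2, Col6a1, Col6a2 and Col6a3, and Sparc and Fbn1. They were taken by gene symbol from a table of 19618 genes, each symbol matched 1 row, and all 10 passed the filter on low counts, as 15422 genes did. The libraries were made from keratinocytes, which form most of the epidermis, of the tails of mice 4 months old. In 3 libraries the mice were K14cre+/ Gpr161Flox-Homozygous, so that Cre recombinase under a keratin 14 promoter, which is active in basal keratinocytes, deletes Gpr161 in the epidermis. The control libraries, also 3, carry no K14cre in their labels; 1 control is labelled Gpr161Flox-Homozygous and the others Gpr161Flox-Heterozygous, so every animal carries a floxed allele. Gpr161 is a ciliary receptor known to restrain Hedgehog signalling. The comparison asks how these genes differ between epidermis with and without Gpr161 deletion, and how far the libraries of a group differ among themselves.

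Fibrillar collagens are trimers wound from 3 chains and are packed into the fibrils that give skin its strength. Collagen I, with chains from Col1a1 and Col1a2, is the bulk collagen of the dermis, and collagen III, from Col3a1, lies in the same fibrils. Collagen V, from Col5a1 and Col5a2, sits at the core of these fibrils and sets their diameter. Collagen VI, from Col6a1, Col6a2 and Col6a3, forms beaded filaments around cells. Sparc is a secreted collagen-binding glycoprotein, and Fbn1 encodes fibrillin-1 of the microfibrils. In skin, dermal fibroblasts are the known main source of collagens I and III. The K14 driver is not aimed at these cells, and the epidermis was scraped from the dermis before lysis.

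A column of the count table names its group, knockout or control, and not its sample. Each library is therefore called by its column's tag, with DE679, DE685 and DE688 for knockout and DE680, DE684 and DE689 for control. Which control is the homozygous one is not known from the columns. Total estimated counts were 17157864 to 25344399. The targeted gene checks nothing at this level: Gpr161 had 28.8 ± 4.23 CPM in knockout and 31.4 ± 1.10 CPM in control libraries (SD, n = 3 each; edgeR adjusted p 0.553). CPM is the count after scaling for library size. DE684 and DE685 held Y-linked transcripts (5291 and 3311 counts), and the other 4 libraries had at most 3 Y-linked counts and at least 17265 Xist counts, so each group held 1 library of that kind. The labelled cell type had its defining markers: the 8 keratinocyte markers, among them Krt14, Krt5 and Krt10, summed to 47805 to 66066 CPM per library. The labels do not say whether each library came from 1 mouse, so p-values measure the spread between these libraries.

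The start regions of 3 members are shown. Col1a2 and Col3a1 had like profiles over the libraries and were highest in DE684. Col5a1 had another profile and was higher in every knockout library than in any control library. Each is 300 bases, from 250 before to 50 after a RefSeq transcript start in GRCm38.p6, printed 5′ to 3′ on the strand of the gene. Capitals mark matches to CCAAT or TATAA on either strand. The regions are chr6:4505368-4505667 for Col1a2, chr1:45311288-45311587 for Col3a1 and chr2:27886175-27886474 for Col5a1, all on the plus strand.
Col1a2: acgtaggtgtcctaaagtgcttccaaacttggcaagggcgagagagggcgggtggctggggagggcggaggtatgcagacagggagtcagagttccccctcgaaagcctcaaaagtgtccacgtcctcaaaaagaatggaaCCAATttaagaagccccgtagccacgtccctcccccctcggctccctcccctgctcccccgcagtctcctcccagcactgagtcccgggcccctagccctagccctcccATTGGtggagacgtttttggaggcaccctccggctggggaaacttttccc
Col3a1: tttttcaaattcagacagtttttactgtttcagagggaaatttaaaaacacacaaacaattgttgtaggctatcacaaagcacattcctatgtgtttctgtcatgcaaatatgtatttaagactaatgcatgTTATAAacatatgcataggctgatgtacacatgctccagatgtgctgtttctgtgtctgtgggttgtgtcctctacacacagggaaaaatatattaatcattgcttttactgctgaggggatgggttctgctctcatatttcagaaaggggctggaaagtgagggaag
Col5a1: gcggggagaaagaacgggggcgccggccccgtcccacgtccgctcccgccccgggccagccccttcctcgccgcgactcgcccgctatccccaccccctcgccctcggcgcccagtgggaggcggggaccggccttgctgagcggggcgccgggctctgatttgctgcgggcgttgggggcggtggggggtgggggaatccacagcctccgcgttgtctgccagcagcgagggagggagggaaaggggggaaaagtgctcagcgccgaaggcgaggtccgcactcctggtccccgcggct
The region of Col5a1 was 75% G or C, that of Col1a2 61% and that of Col3a1 37.7%, against a median of 52.7% over 32851 start regions in the same table. Start regions were matched for 8 of the 10 members, with none for Col1a1 and Col5a2. CCAAT or its reverse complement was found in Col1a2 alone among the 8, with 2 matches, and in 37.4% of all regions. TATAA or its reverse complement was found in Col3a1 alone, as 2 overlapping matches, and in 24.9% of all regions. The letters GACCACCCA, the core bound by the Gli factors of the Hedgehog pathway, or their reverse complement were in 0 of the 8 and in 0.253% of all regions. A match is a description of the letters and not evidence of binding.

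With genotype as the only term, none of the 10 matrix genes differed between the genotypes at an adjusted p under 0.05 (edgeR quasi-likelihood test on unpaired libraries, Benjamini-Hochberg over all genes tested), where 1.60% of all tested genes did (1.24% higher and 0.357% lower in the knockout). At an unadjusted p under 0.05 there were 3 of 10, Col5a1, Col5a2 and Fbn1, against 19.0% of all tested genes. For the same 3 genes the CPM ranges of the groups were apart, against 25.6% of all tested genes; 2 were higher in the knockout and 1 lower, against 12.8% and 12.8%. The log2 fold change of knockout over control was above 0 for 4 genes and below 0 for 6, with a median of −0.22 beside −0.0036 for all genes tested. The DESeq2 Wald test called 1 of the 10, Col5a1, where it called 5.89% of the genes with an adjusted p. With the presence of Y-linked transcripts as a sex covariate, edgeR called 2 of the 10, Sparc and Col6a1, against 2.65% of all tested genes. The column tags form 3 pairs of neighbouring numbers (DE679 and DE680, DE685 and DE684, DE688 and DE689), each with a knockout and a control library of the same sex. With these pairs as a block, an alternative added after the data were seen, edgeR called 3 of the 10, Col5a1 and Col6a1 as higher and Sparc as lower in the knockout, against 4.56% of all tested genes.

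**Figure D1:**
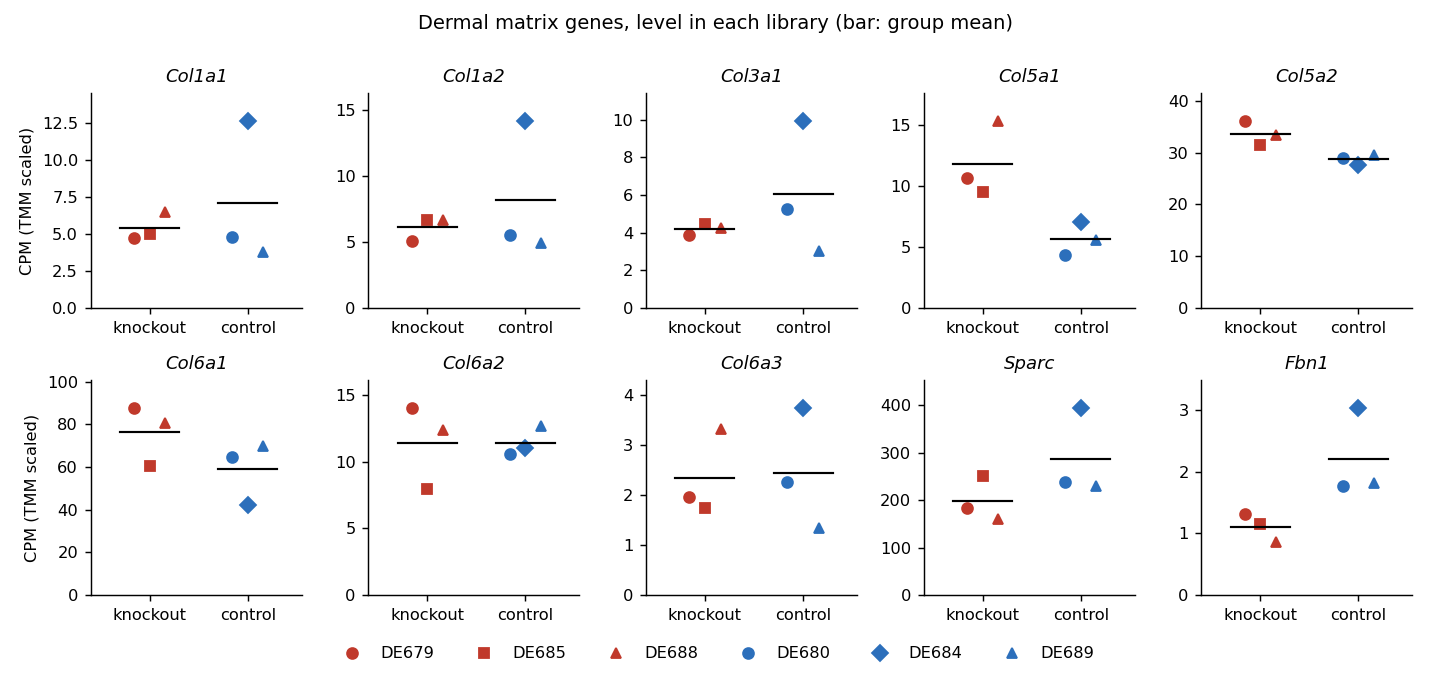
Level of each of the 10 matrix genes in CPM (vertical axes, each starting at 0) in the 3 knockout and 3 control libraries; points are libraries and bars are group means. DE684 is the highest of the 6 libraries for Col1a1, Col1a2, Col3a1, Col6a3, Sparc and Fbn1, and the groups do not overlap for Col5a1, Col5a2 and Fbn1.

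The chains of collagens I and III were at low levels and were set apart by 1 control library. Col1a1 (chromosome 11, 94936224 to 94953042, plus strand, GRCm38), the alpha 1 chain of collagen I, had 4.71, 5.03 and 6.46 CPM in DE679, DE685 and DE688, against 4.79, 12.6 and 3.81 CPM in DE680, DE684 and DE689. Only DE684 was high; the other 5 libraries lay between 3.81 and 6.46 CPM, with both genotypes among them. Mean levels were 5.40 ± 0.932 CPM in knockout and 7.06 ± 4.81 CPM in control libraries (SD, n = 3 each). On the log2 scale the difference was −0.38 (SE 0.43, edgeR adjusted p 0.663). It turned to 0.33 without DE684 (SE 0.23, edgeR adjusted p 0.495). The values rest on 87 to 287 counts per library.

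Col1a2 (chromosome 6, 4504814 to 4541544, plus strand), the alpha 2 chain of collagen I, had 5.05, 6.64 and 6.69 CPM in DE679, DE685 and DE688, against 5.50, 14.1 and 4.96 CPM in DE680, DE684 and DE689. Again DE684 alone was high and the other libraries of both genotypes overlapped. The log2 fold change was −0.42 (SE 0.39, edgeR adjusted p 0.599) with all libraries and 0.23 (SE 0.20, edgeR adjusted p 0.597) without DE684. Both collagen I chains kept nearly the same proportion while their level moved. Per kb of exon, Col1a1 was 1.43 to 1.83 times Col1a2 in the 6 libraries, a range of 1.28-fold, where Col1a1 itself ranged 3.31-fold. Which chain is the higher depends on the exon lengths used, since in CPM Col1a1 was below Col1a2 in each of the 6 libraries. Their centred profiles were the closest of the 45 pairs of members, with a root mean square difference of 0.12 on the log2 scale.

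Col3a1 (chromosome 1, 45311538 to 45349706, plus strand), the chain of collagen III, had 3.86, 4.45 and 4.24 CPM in DE679, DE685 and DE688, against 5.28, 9.91 and 3.01 CPM in DE680, DE684 and DE689. The 3 knockout libraries lay within the range of the controls, and DE684 was again the highest. The log2 fold change was −0.54 (SE 0.39, edgeR adjusted p 0.489), and 0.012 without DE684 (SE 0.28, edgeR adjusted p 0.987). Summed, the 3 genes Col1a1, Col1a2 and Col3a1 had 13.6, 16.1 and 17.4 CPM in the knockout libraries and 15.6, 36.6 and 11.8 CPM in DE680, DE684 and DE689. The ratio of knockout to control differed with the libraries taken: between those with Y-linked transcripts it was 0.399 for Col1a1, 0.470 for Col1a2 and 0.449 for Col3a1, and between the means of those with Xist it was 1.298, 1.12 and 0.976. The spread within the control was wider than the difference between the group means: the SD was 13.4 CPM around a control mean of 21.3, and 1.92 CPM around a knockout mean of 15.7.

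Collagen V showed the other pattern. Col5a1 (chromosome 2, 27886425 to 28039514, plus strand), its alpha 1 chain, had 10.6, 9.53 and 15.3 CPM in DE679, DE685 and DE688, against 4.35, 7.06 and 5.55 CPM in DE680, DE684 and DE689. Every knockout library was above every control library. The means were 11.8 ± 3.07 and 5.65 ± 1.36 CPM (SD, n = 3 each). The difference of 1.07 on the log2 scale (SE 0.24) did not pass the threshold (edgeR adjusted p 0.0804). DESeq2 gave 1.07 for this gene with an adjusted p of 0.00106, and over all settings tried the adjusted p ranged from 0.00106 to 0.226. With the tag pairs as a block it was called too (1.07, SE 0.21, edgeR adjusted p 0.0354), and the knockout was 1.35 to 2.76 times the control in the 3 pairs. Between the libraries with Y-linked transcripts, 1 per group, the knockout was 1.35 times the control, and between the means of those with Xist 2.62 times. Exons of 2810430I11Rik on the opposite strand share 1.17% of its exon bases and those of Gm13372 share 1.33%; counting by strand is not given in the sources used here.

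Col5a2 (chromosome 1, 45374321 to 45503282, minus strand), the alpha 2 chain of collagen V, was the steadiest member. It had 36.0, 31.5 and 33.5 CPM in DE679, DE685 and DE688, against 28.9, 27.7 and 29.5 CPM in DE680, DE684 and DE689. The groups did not overlap, but the log2 fold change was small, 0.23 (SE 0.08, edgeR adjusted p 0.177). DE684, the highest library for collagens I and III, was the lowest for Col5a2. Col5a2 and Col3a1 are neighbours on chromosome 1, on opposite strands with 24614 bases between them, and yet had unlike profiles. Per kb of exon, Col5a2 was 2.62 ± 0.594 times Col5a1 in the knockout and 4.68 ± 1.21 times in the control (SD, n = 3 each).

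Among the collagen VI chains, Col6a1 stood far above the others. Col6a1 (chromosome 10, 76708792 to 76726168, minus strand), the alpha 1 chain, had 87.5, 60.7 and 80.8 CPM in DE679, DE685 and DE688, against 64.8, 42.2 and 69.9 CPM in DE680, DE684 and DE689. The groups overlapped, and DE684 was the lowest of the 6 libraries, the reverse of its place for collagen I. The log2 fold change was 0.37 (SE 0.20, edgeR adjusted p 0.350), and 0.39 (SE 0.07, edgeR adjusted p 0.0417) with sex as a covariate. With the tag pairs as a block it was 0.39 (SE 0.08, edgeR adjusted p 0.0347), and the knockout was 1.16 to 1.44 times the control in the 3 pairs. Without DE684, and with neither term, it was 0.18 (SE 0.15, edgeR adjusted p 0.570). Within the 2 libraries with Y-linked transcripts the knockout was 1.44 times the control. Within the 4 libraries with Xist the knockout mean was 1.25 times the control mean and the groups did not overlap. How many of all genes were apart in these 4 libraries was not computed.

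Col6a2 (chromosome 10, 76595762 to 76623630, minus strand), the alpha 2 chain and neighbour of Col6a1 at 85161 bases, had 13.99, 7.91 and 12.4 CPM in DE679, DE685 and DE688, against 10.6, 11.01 and 12.7 CPM in DE680, DE684 and DE689. The knockout libraries lay on both sides of the controls, and the log2 fold change was 0.0056 (SE 0.20, edgeR adjusted p 0.992). Col6a3 (chromosome 1, 90765923 to 90843971, minus strand), the large alpha 3 chain, had 1.95, 1.73 and 3.31 CPM against 2.26, 3.73 and 1.35 CPM in the same order. DE684 and DE688 were the high libraries of their groups, and the log2 fold change was −0.06 (SE 0.42, edgeR adjusted p 0.957). These values rest on 30 to 85 counts per library.

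The collagen VI chains are known to assemble together, but their transcript levels were unequal. Per kb of exon, Col6a1 was 7.28 to 14.6 times Col6a2 and 30.9 to 141 times Col6a3 in the 6 libraries. The lowest of each range was in DE684, where Col6a1 was low and Col6a3 high. Exon length here is the union of all annotated exons, which can overstate the transcript length and so understate a level.

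Sparc and Fbn1 were lower on average in the knockout, without passing the threshold in the edgeR test with genotype as the only term. Sparc (chromosome 11, 55394500 to 55423183, minus strand) had 183, 250.3 and 159.8 CPM in DE679, DE685 and DE688, against 239, 394 and 230.1 CPM in DE680, DE684 and DE689. DE685, the knockout library with Y-linked transcripts, lay above 2 of the controls, so the groups overlapped. The log2 fold change was −0.54 (SE 0.24, edgeR adjusted p 0.267). Within the libraries with Xist the knockout mean was 171 and the control mean 234 CPM with no overlap. The share of all genes without overlap in these few libraries was not computed. The ratio of knockout to control was 0.732 there. Between the libraries with Y-linked transcripts it was 0.636. With sex as a covariate the log2 fold change was −0.52 (SE 0.07, edgeR adjusted p 0.0175). With the tag pairs as a block it was −0.52 (SE 0.07, edgeR adjusted p 0.00874), and the knockout was 0.636 to 0.768 times the control in the 3 pairs. Without DE684, with no covariate and no block, it was −0.25 (SE 0.17, edgeR adjusted p 0.504).

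Fbn1 (chromosome 2, 125300594 to 125507993, minus strand) had 1.31, 1.16 and 0.856 CPM in DE679, DE685 and DE688, against 1.77, 3.03 and 1.82 CPM in DE680, DE684 and DE689. All 3 knockout libraries were below all controls, on 20 to 69 counts per library. The log2 fold change was −0.99 (SE 0.32, edgeR adjusted p 0.166), and −0.70 (SE 0.32, edgeR adjusted p 0.321) without DE684. Exons of Gm9913, on the opposite strand, cover 20.1% of its exon bases, so its counts are uncertain. The ratio of knockout to control was 0.382 between the libraries with Y-linked transcripts and 0.603 between the means of those with Xist. The groups did not overlap within the libraries with Xist either, but the share of all genes so apart was not computed.

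**Figure D2:**
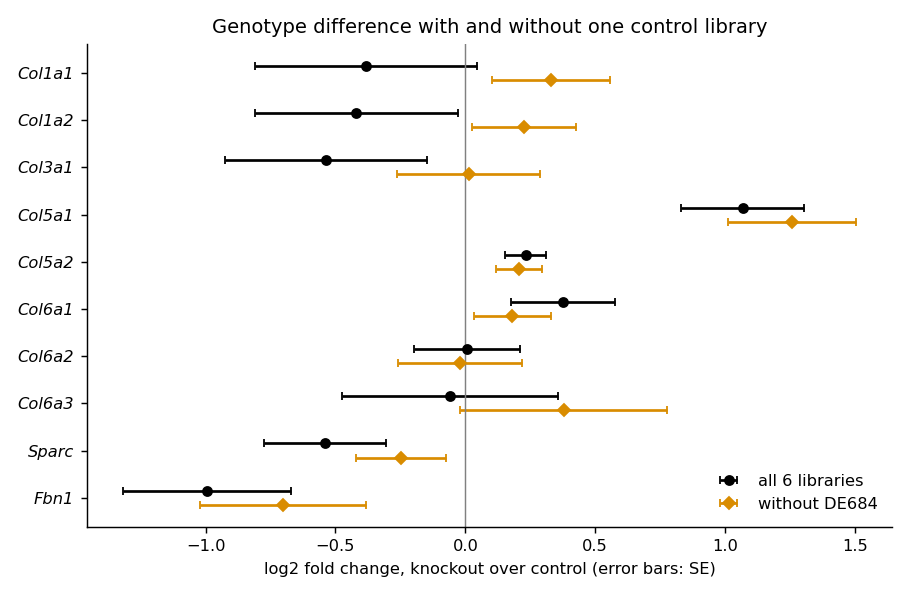
Log2 fold change of knockout over control for each matrix gene (horizontal axis; error bars are SE) with all 6 libraries and with DE684 left out. Col1a1, Col1a2 and Col3a1 move from −0.38, −0.42 and −0.54 to 0.33, 0.23 and 0.012, while Col5a1 stays above 1 in both fits. Without DE688, a fit not drawn, Col5a1 was 0.83.

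By level per kb of exon, averaged over the 6 libraries, the order was Sparc (64.0 ± 21.6 CPM per kb), Col6a1 (15.4 ± 3.65), Col5a2 (3.25 ± 0.328), Col6a2 (1.37 ± 0.254) and Col5a1 (1.03 ± 0.471, SD, n = 6). Col1a1 (0.949), Col1a2 (0.576), Col3a1 (0.522), Col6a3 (0.200) and Fbn1 (0.137 CPM per kb) followed. The ranges of Sparc, Col6a1 and Col5a2 over the libraries overlapped with no neighbour in this order. From Col6a2 down, the range of each gene over the libraries overlapped that of the next. Within each of the 6 libraries Col1a1 was above Col1a2 per kb of exon, but below it in CPM. The order of this pair thus rests on the exon lengths used, 6563 bases for Col1a1 and 12426 for Col1a2. These lengths are unions of all annotated exons, which can overstate the transcript length. The bulk collagens of the dermis thus ranked below Col5a2 and Col6a1 in these epidermal libraries.

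The 10 genes did not share 1 profile over the libraries. Of the 3 controls, DE684 was highest for 7 of the 10 genes (32.4% of all tested genes), DE689 for 3 (33.8%) and DE680 for 0 (33.8%). Col5a2 and Col6a1 were lower in DE684 than in any other library. DE684 was at least 2 times the mean of the other controls for 4 genes, Col1a1 (2.93 times), Col1a2 (2.701), Col3a1 (2.39) and Col6a3 (2.07), where 2.37% of all tested genes were. DE680 and DE689 were so for 0 of the 10, where 1.85% and 1.85% of all tested genes were. The median ratio of DE684 to the other controls was 1.68 for the 10 genes and 0.996 for all tested genes. Without DE684 the median log2 fold change of knockout over control was 0.19, with 7 genes above 0 and 3 below, and −0.0017 for all genes tested. These shares are descriptions, since the genes were read with the earlier values known. The members lying farthest apart were Col5a1 and Fbn1, with a root mean square difference of 0.92 between their centred log2 profiles. The mean profile of all 10 was closest to Gstm6, Vtcn1, Fads1, Tdp1, Tpmt and Ssh2 among 13655 other genes with a mean of at least 1 CPM (differences of 0.063 to 0.091 over 6 libraries). Each member lay farther from that mean, at 0.25 to 0.56.

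**Figure D3:**
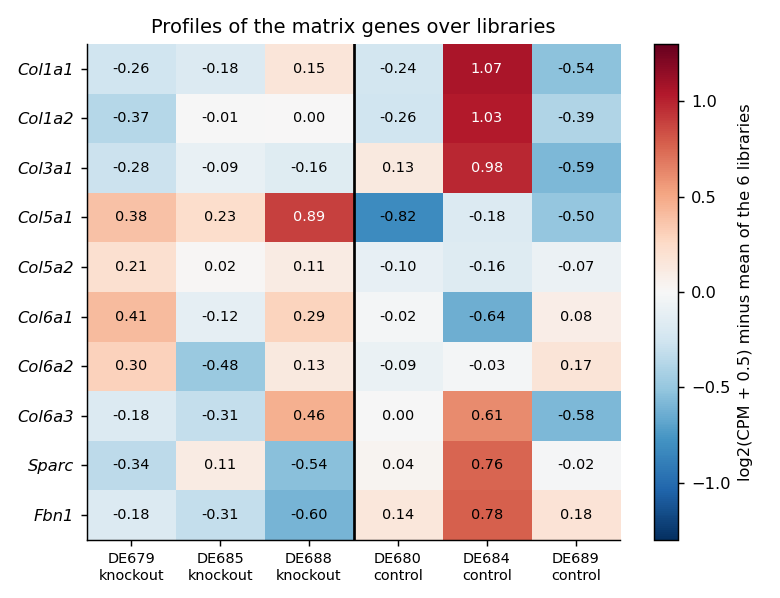
Centred profiles of the matrix genes: each cell is log2(CPM + 0.5) minus the mean of that gene over the 6 libraries (colour and printed value; columns are libraries, rows genes). DE684 reads about 1 for Col1a1, Col1a2 and Col3a1 and −0.64 for Col6a1, and Col5a1 separates the knockout from the control libraries.

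A profile taken from Col1a1, Col1a2 and Col3a1 alone, a choice made after their values were seen, was closest to Fn1, Apod, Dbn1, Serpine2, Vcan and Ret. Fn1 encodes fibronectin and Vcan the proteoglycan versican, both matrix proteins, and Serpine2 a secreted protease inhibitor. Fn1 had 4.49, 4.10 and 4.67 CPM in DE679, DE685 and DE688, against 4.79, 11.5 and 2.78 CPM in DE680, DE684 and DE689. Its difference from the profile of the 3 collagen genes was 0.15. Vcan had 6.36 CPM in DE684 and 1.67 to 3.87 CPM in the other 5 libraries. Neither passed the threshold between genotypes (edgeR adjusted p 0.576 for Fn1 and 0.885 for Vcan). Both were picked for a profile like that of the 3 collagen genes, so this outcome follows from the choice and is no further result. The profile of Col5a1 was closest to Gm973, Cpxm1, Tle2 and Mex3b, which had adjusted p of 0.0590 to 0.174 in the edgeR test. This choice too was made after the values were seen.

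Fibroblast markers were read beside these levels. Of 12 markers, Lum, Dpt, Twist2, Prrx1, Clec3b, Pi16 and Fap, 7 in all, were below 1 CPM in every library, with 0 to 18 counts. Pdgfra, the receptor that marks dermal fibroblasts, had 1.11 ± 0.266 CPM in knockout and 1.09 ± 0.628 CPM in control libraries (SD, n = 3 each). The whole list summed to 436 to 485 CPM in the knockout and 339 to 379.6 CPM in the control, almost all of it from Lrp1, Dcn and Mmp2. The remaining 9 markers, set apart after their values were seen, summed to 3.99, 3.06 and 3.89 CPM in DE679, DE685 and DE688 and to 4.08, 5.53 and 3.13 CPM in DE680, DE684 and DE689. DE684 was highest for this sum too, but by less than for collagens I and III: the sum of the 3 collagen genes was 6.63 times that of the 9 markers in DE684 and 3.41 to 5.26 times in the other libraries. Among the 9, Pdgfra, Dpt, Twist2, Clec3b and Fap were highest in DE684, while Lum, Prrx1, Pi16 and Cd248 were highest in other libraries. The whole list was not highest in DE684, at 368 CPM, and Mmp2 was lowest there, at 72.5 CPM. In bulk libraries, fewer cells of a type and less RNA per cell cannot be told apart, and the part of dermal cells in these levels was not tested.

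Dcn, which encodes the collagen-binding proteoglycan decorin and is a strong fibroblast gene, did not follow the genes of collagens I and III. Like Col5a1 and Col5a2, Dcn was higher in every knockout library than in any control library. It had 119 ± 6.19 CPM in knockout and 31.9 ± 10.1 CPM in control libraries (SD, n = 3 each), which is 1.90 as a log2 fold change (edgeR adjusted p 0.00782, SE 0.21). Per kb of exon, Dcn was 25.2 ± 3.81 times Col1a1 in the knockout and 6.22 ± 3.46 times in the control, and the ratio was lowest, at 3.62, in DE684. Dcn kept its call in the 6 fits without 1 library (edgeR adjusted p up to 0.039). Lrp1, an endocytic receptor, and Mmp2, a gelatin-degrading protease, were abundant with no call (edgeR adjusted p 0.871 and 0.283), and Cd248, a stromal membrane glycoprotein, had −1.04 as a log2 fold change (edgeR adjusted p 0.137, SE 0.30).

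**Figure D4:**
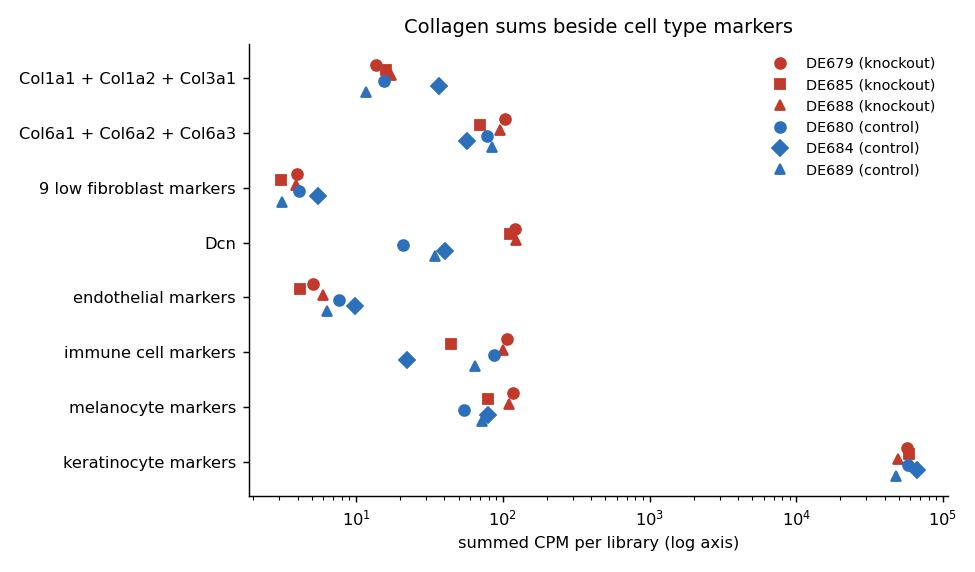
Summed CPM per library (horizontal log axis) of the collagen I and III genes, the collagen VI genes and cell type markers; points are libraries. DE684 is highest for the collagen I and III sum (36.6 CPM), the 9 low fibroblast markers (5.53) and the endothelial markers (9.91), as well as the keratinocyte markers (66066), and lowest for the collagen VI sum (56.9) and the immune cell markers (22.4).

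Markers of other cells of the skin were read in the same way. The 8 endothelial markers summed to 4.16 to 5.95 CPM in the knockout and 6.39 to 9.91 CPM in the control, with 0 of 7 tested genes called. All 7 were below 0 in log2 fold change, with a median of −0.87 beside −0.0036 for all genes tested. Immune cell markers were lowest in DE684 (22.4 CPM) and DE685 (44.4 CPM) and 64.9 to 107 CPM elsewhere, with 0 of 7 called, all 7 above 0 and a median of 0.58. Melanocyte markers summed to 79.2 to 117 CPM in the knockout and 54.0 to 78.9 CPM in the control, with 0 of 6 called, all 6 above 0 and a median of 0.54. Of the pericyte and smooth muscle list 1 of 4 tested genes was called, Cspg4 (log2 fold change 0.51, SE 0.09, edgeR adjusted p 0.0427). Of the Schwann cell list it was 1 of 4, Ncmap (1.56, SE 0.29, edgeR adjusted p 0.0456), against 1.60% of all tested genes. Cspg4 and Ncmap lost the call in each of the 6 fits without 1 library. Cspg4 and Notch3 had means of 135 and 189 CPM, against 1.43 for Acta2 and 2.38 for Tagln. Rgs5, Myh11 and Pdgfrb of the same list reached at most 1.14, 0.52 and 1.01 CPM and were not tested, so the Cspg4 call does not speak for that list. Adipocyte, skeletal muscle and tendon, cartilage and bone markers summed to at most 2.46, 3.11 and 8.21 CPM, with 0 called among 1, 2 and 1 tested. The keratinocyte list had 0 of 8 called, and its sum was highest in DE684 as well, with 66066 CPM against 47805 to 59021 CPM in the other 5 libraries. Its genes did not move together. Krt10 (25272.5 CPM in DE684, 12432 to 17491 CPM in the others), Krt1 and Dsp were highest in DE684. Trp63 (523 CPM) and Col17a1 (3528 CPM) were lowest there, and Krt14, Krt5 and Krt15 were neither. Per 1000 CPM of keratinocyte markers, the sum of Col1a1, Col1a2 and Col3a1 was 0.554 in DE684 and 0.240 to 0.352 in the others. The divisor includes Krt10, so the ratio in DE684 depends on the markers chosen. DE684 was also highest for the skeletal muscle markers. With the tag pairs as a block, 1 melanocyte gene (Mitf), 1 immune cell gene (Cd74) and 1 keratinocyte gene (Krt15) were called as higher in the knockout, against 4.56% of all tested genes called in either direction. The part of these cells in the matrix levels was not tested.

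The other genes of matrix assembly were mostly not called. Among the other fibrillar and associated collagens 0 of 6 tested passed (5 above and 1 below 0, median log2 fold change 0.41), with Col2a1, Col11a1 and Col24a1 below 1 CPM in every library. Col5a3, the alpha 3 chain of collagen V, had 4.39 ± 1.86 CPM in knockout and 1.89 ± 0.783 CPM in control libraries (SD, n = 3 each) with no overlap, which is 1.22 as a log2 fold change (edgeR adjusted p 0.180, SE 0.41). It was the 1 gene of the 6 tested that was called with the tag pairs as a block (edgeR adjusted p 0.0313), against 4.56% of all tested genes. Col12a1 and Col16a1, which bind to fibril surfaces, had 100.6 to 110.0 CPM as group means and log2 fold changes of 0.13 and 0.046. Col14a1, of the same family, had 0.70 (SE 0.24, edgeR adjusted p 0.183).

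Of the genes that fold, modify and crosslink collagen, 0 of 24 tested passed, with 14 above and 10 below 0 and a median of 0.086. Serpinh1, the collagen chaperone, had 112.7 ± 3.52 CPM in knockout and 100.5 ± 2.79 CPM in control libraries (SD, n = 3 each), with no overlap, which is 0.17 as a log2 fold change (edgeR adjusted p 0.167, SE 0.05). P4hb, a subunit of prolyl 4-hydroxylase, and Ppib, a folding isomerase, had −0.13 and −0.07, and P3h4 −0.23. Below 1 CPM in every library were 5 genes: Lox, Loxl1 and Loxl3 of the crosslinking lysyl oxidase family, Plod2, a lysyl hydroxylase, and Adamts3, a procollagen-processing protease.

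Elastic fibre and microfibril genes, the partners of fibrillin-1, included 2 calls among 14 tested, both higher in the knockout, against 1.60% of all tested genes called. Ltbp1, a binding protein of latent TGF-beta that docks on microfibrils, had 29.0 ± 3.96 against 15.1 ± 1.52 CPM (SD, n = 3 each), which is 0.94 as a log2 fold change (edgeR adjusted p 0.0158, SE 0.13). Fbln1, which encodes fibulin-1, had 43.1 ± 5.47 against 25.7 ± 3.43 CPM, which is 0.75 as a log2 fold change (edgeR adjusted p 0.0384, SE 0.13). Each lost the call in 4 of the 6 fits without 1 library. For Ltbp1 these were the fits without DE680, DE684, DE685 or DE688, with an edgeR adjusted p up to 0.0682, and for Fbln1 those without DE679, DE680, DE688 or DE689, up to 0.156. Ltbp4 and Ltbp3, the most abundant of the list, had 0.019 and 0.14. The list median was 0.14. Of the 14, 5 were called as higher with the tag pairs as a block: Fbln1, Fbln2, Fbn2, Ltbp1 and Ltbp2. That fit called 4.56% of all tested genes in either direction.

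Of the basement membrane collagens, which keratinocytes are known to make, 1 of 10 passed, against 1.60% of all tested genes. Col4a2, a chain of collagen IV, had 53.3 ± 7.91 CPM in knockout and 27.5 ± 4.16 CPM in control libraries (SD, n = 3 each), which is 0.95 as a log2 fold change (edgeR adjusted p 0.0241, SE 0.14). It kept the call without DE679 and lost it without any other library, with an edgeR adjusted p up to 0.0997. Of the 10, 4 were called as higher with the tag pairs as a block, the collagen IV genes Col4a1, Col4a2, Col4a3 and Col4a4. The block fit called 4.56% of all tested genes in either direction. Col17a1, Col7a1 and Col18a1 had 0.066, −0.05 and 0.093. The list summed to 4716 to 5214 CPM per library, where the 10 dermal matrix genes summed to 323 to 525 CPM. Without Sparc, the other 9 summed to 165, 129 and 164 CPM in DE679, DE685 and DE688 and to 128, 131 and 133 CPM in DE680, DE684 and DE689.

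**Figure D5:**
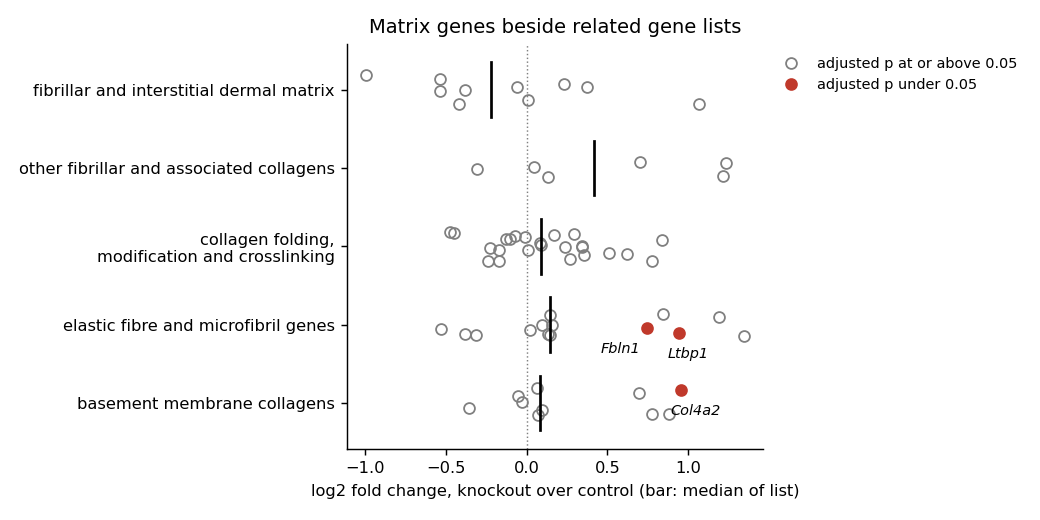
Log2 fold change of knockout over control (horizontal axis) of the tested genes of each list; filled points have an adjusted p under 0.05 and bars are list medians. The values are those of the edgeR test with genotype as the only term: none of the 10 matrix genes is filled, and Fbln1, Ltbp1 and Col4a2 are.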

How the data were processed

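RNA was sequenced from tail keratinocytes in 3 knockout and 3 control libraries. The authors deposited estimated counts per gene, of which 53.0% to 57.7% per library are whole, and a normalized signal per gene; per the file headers, the alignments were sorted and their duplicates marked. STAR 2.7.0f, cutadapt 1.18, bcl2fastq 2.20, Partek and mm10 are named per the submitters' processing notes; the counting tool and its use of strand are not given in the sources used here. The deposited estimated counts were rounded to whole numbers and tested across all 15422 genes passing filterByExpr with edgeR 4.0.16 (TMM factors, quasi-likelihood test, genotype as the only term, Benjamini-Hochberg, threshold 0.05). The design had assumed counts and the test was kept. Each SE was derived from the F statistic. Levels are CPM with TMM scaling; 3 counts are 0.117 to 0.173 CPM, a limit from counting error only. Gene positions and exon lengths are from GENCODE vM21 (GRCm38), whose starts equal those in the table for all 10 genes.

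Within a group, libraries differed beyond sampling noise (12.2 to 39.9 chi-square units per degree of freedom). Profiles used log2(CPM + 0.5). All 10 genes were named, the targeted gene, up to 4 genes per list (called ones first, then by CPM), and the 6 genes closest to the mean profile. The members and the 14 other lists were chosen with earlier results of these data known. Alternatives were DESeq2 1.42.0, factors by RLE or upper quartile, no filter or a minimum mean of 1 CPM, voom with limma 3.58.1, limma on log2 of the authors' normalized signal plus 1, a sex covariate read from Xist and Y-linked genes, each library left out and, added after the data were seen, a block of the libraries with neighbouring column tags. The labels do not say that these tags mark pairs. The deviations from the group means correlated at 0.211, 0.336 and 0.391 over 15421 genes in the 3 neighbouring pairs, and at −0.313 to −0.0457 in the other 6 combinations of a knockout and a control library. Deviations within a group cancel for each gene, so positive values in some combinations force negative ones in others. DE684 and DE685 are also the libraries with Y-linked transcripts, so for them pairing and sex cannot be told apart. An exact permutation test of 3 against 3 cannot go below 0.1. On simulated data the edgeR test recovered 70% of genes changed 2-fold and 92% of those changed 4-fold (15421 genes tested). The changed genes were drawn at random from those with a mean of at least 1 CPM, and the libraries were simulated as independent. These shares are therefore not the recovery for the 10 matrix genes, which was not simulated.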

Additional observations from a re-analysis of the deposited data

How the results depend on the processing

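The number of the 10 matrix genes called was 0 in the edgeR test, 1 with DESeq2, 2 with the sex covariate, 3 with the replicate block, and 0 with RLE or upper-quartile factors, no filter, a mean of at least 1 CPM, limma-voom, limma on the authors' values and in the 6 fits without 1 library. Over all genes, 247 were called, 1.60% of those tested. DESeq2 called 872, 5.89% of the genes with an adjusted p (606 adjusted p were NA). There were 409 (2.65%) with the sex covariate and 704 (4.56%) with the replicate block (the 247 among them). The fits without 1 library, which hold fewer samples, called 69 to 121. Over the 14 other lists, 6 genes were called, against 17 with DESeq2, 11 with the sex covariate, 16 with the replicate block and 1 to 4 without 1 library. The causes of these rises and falls were not tested. Of 90 fold changes of members under other settings, 79 kept direction and side of the threshold, 6 passed it (Col5a1 at 1.07 with DESeq2 and 1.07 with the block, Col6a1 at 0.39 and Sparc at −0.52 with the sex covariate and with the block) and 5 reversed: Col6a2, near 0, to −0.034 with limma on the normalized values, −0.028 with sex as a covariate and −0.024 with the block, and Col6a3 to 0.056 with limma-voom and 0.013 with the sex covariate. Without 1 library, 10 of 60 reversed. The ranges were −0.68 to 0.33 for Col1a1, −0.68 to 0.23 for Col1a2, −0.86 to 0.012 for Col3a1, −0.16 to 0.20 for Col6a2, −0.40 to 0.38 for Col6a3, 0.18 to 0.52 for Col6a1 and −0.75 to −0.25 for Sparc. They were 0.83 to 1.26 for Col5a1, 0.18 to 0.28 for Col5a2 and −1.14 to −0.70 for Fbn1. For Col1a1, Col1a2 and Col3a1 the fit without DE684 alone reversed. The columns carry no replicate number of the sample titles; the replicate block is by neighbouring column tags and was chosen after seeing the data. It changed no other call of the 10 genes. Fbn1 and Col6a3 had the fewest counts, 20 to 85 per library; how far counting error sets their SE was not tested.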
